A study of Arabidopsis thaliana with 27 samples.

Results

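The comparison covers all genes of Arabidopsis thaliana seedlings 1 h after a move from 17 °C to 27 °C, and asks which transcripts had changed by then. It rests on 4 of the 27 RNA-seq libraries of the series, chosen by their labels: 2 from seedlings moved to 27 °C and 2 from seedlings left at 17 °C, all collected 1 h after the move. Every library came from whole wild-type seedlings of the accession Col-0, with no mutation or transgene. The plants were 10 days old, had been raised at 17 °C under long days, and were moved 1 h after dawn. Whole seedlings mix leaf, stem and root cells, so fewer cells of a type and less RNA per cell cannot be told apart. Duplicate libraries of the same move taken at 15 min and 4 h shared the estimate of the spread, which made 12 libraries in the fit. Whether the 2 libraries of a temperature came from separately grown plants is not stated, so the p-values measure the spread between these libraries, which may be technical.

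Heat shock factors are transcription factors that bind heat shock elements, short repeats in front of chaperone genes, and raise the transcription of those genes when proteins unfold. The chaperones they control hold, refold or pull apart damaged proteins in the cytosol, chloroplasts and mitochondria. Proteins that enter the endoplasmic reticulum (ER) depend on a separate set of chaperones, disulfide isomerases and degradation factors, whose genes often carry an ER stress element. Jasmonate is a hormone of wounding and defence whose repressors, the JAZ proteins, are themselves induced by it. Moderate warmth, as opposed to heat shock, is also known to act on growth through the factor PIF4.

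The 4 libraries held 11377264 and 11738286 counts at 27 °C, against 9531141 and 14791850 at 17 °C. Chloroplast genes took 6.45% and 0.214% of the counts in libraries 1 and 2 at 27 °C, against 5.43% and 0.252% in libraries 1 and 2 at 17 °C. Library 1 of each temperature thus stood apart from library 2, and the other libraries of the fit lay between 0.209% and 1.54%. The summed level of 7 shoot markers was 22650 and 19250 per 1 M counts at 27 °C, against 20140 and 16560 at 17 °C, and that of 14 root markers was 190.4 and 357 at 27 °C, against 232.7 and 366.3 at 17 °C. Both marker sums ranged over more between the libraries of a temperature than between the temperatures of a number. Of 6 seed storage markers, 3 were at 0 in each 27 °C library, against 2 at 0 in each 17 °C library. Libraries with the same number deviated together, so a fit with a term for the number within each time, called the replicate block here, is given beside the fit without it.

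At 1 h, 95 of 21119 genes tested were higher at 27 °C (0.45%) and 85 were lower (0.402%) at an adjusted p under 0.05 in edgeR. With the replicate block, 702 genes were higher (3.32%) and 950 lower (4.5%), and these included all 180 genes of the fit without it, in the same direction. For each of the 180 genes, both 27 °C libraries lay on the same side of both 17 °C libraries. The genes were chosen by a test on these same libraries, so that separation adds no support to the calls. How many of all genes were separated in this way is not given here. The median log2 fold change was 1.8 for the genes called higher and -1.3 for those called lower, against -0.01 for all genes. Of the 95 higher genes, 78 changed more between the libraries numbered 1 than between those numbered 2, with medians of 1.98 and 1.68. Whether the larger share of chloroplast counts in library 1 had a part in that was not tested. The number of calls rested on every library: edgeR called 0 genes without library 1 at 17 °C (2665 at an unadjusted p under 0.05), 0 without library 2 at 17 °C (2365), 1 without library 1 at 27 °C (2560) and 1318 without library 2 at 27 °C, of which 170 were among the 180. The calls described below without the block were thus lost without either 17 °C library and, but for 1 gene, without library 1 at 27 °C. DESeq2 on all libraries called 865. In edgeR without the block, 3405 of the 21119 genes tested had an unadjusted p under 0.05. The unadjusted counts of list members given below are to be read against that share. Of the 180 genes, 29 overlap another gene in the files, as do MBF1C, GolS1, AR192, cpHsc70-2, P58IPK, EDS5 and AT3G15460 among the genes described here, and reads of overlapping genes may not have been told apart.

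The highest fold changes among the called genes belonged to small heat shock proteins, which bind unfolding proteins and keep them from clumping. Of 13 tested genes for cytosolic small heat shock proteins, 11 were higher at 27 °C and none lower, and the list's median was 5.99 on the log2 scale. The gene for HSP17.4 (AT3G46230, chr3:16984118-16984841, TAIR10) had 319 and 95.3 CPM (counts per 1 M after TMM scaling) at 27 °C, against 0.224 and 0.133 CPM at 17 °C. Those values stood for 2943 and 1152 counts at 27 °C, against 2 in each 17 °C library, so the transcript was barely counted at 17 °C. Its log2 fold change was 10.20 ± 1.39 (SE) with an adjusted p of 0.0299 in edgeR, and it overlaps a neighbouring gene, which the counting may not have told apart.

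The stretches in front of 3 heat-induced genes are shown because each holds the element that heat shock factors bind. Each window is the 250 bases before the gene's start in the files, read 5′ to 3′ on the gene's strand from the RefSeq sequence of TAIR10.1. They lie at chr3:16984842-16985091 on the minus strand for HSP17.4, chr2:11135432-11135681 on the plus strand for HSFA2 and chr3:3993793-3994042 on the minus strand for HSP70 (AT3G12580). Capitals mark a heat shock element of 3 units, which alternates GAA and TTC with 2 bases between units.
HSP17.4: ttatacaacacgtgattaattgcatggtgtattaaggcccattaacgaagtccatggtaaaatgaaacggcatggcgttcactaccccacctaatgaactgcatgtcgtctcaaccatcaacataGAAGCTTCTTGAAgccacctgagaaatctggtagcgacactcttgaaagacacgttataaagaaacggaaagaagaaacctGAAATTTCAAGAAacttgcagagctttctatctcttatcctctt
HSFA2: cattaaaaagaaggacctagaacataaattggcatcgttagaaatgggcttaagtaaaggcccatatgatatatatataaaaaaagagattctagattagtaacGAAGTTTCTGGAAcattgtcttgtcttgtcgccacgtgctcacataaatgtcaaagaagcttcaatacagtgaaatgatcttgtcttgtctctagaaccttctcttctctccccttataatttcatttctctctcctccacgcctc
HSP70: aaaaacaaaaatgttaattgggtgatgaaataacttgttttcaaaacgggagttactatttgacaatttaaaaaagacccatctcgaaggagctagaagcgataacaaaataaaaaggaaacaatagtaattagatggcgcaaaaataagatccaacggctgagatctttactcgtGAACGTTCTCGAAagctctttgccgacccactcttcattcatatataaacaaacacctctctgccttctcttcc
HSP17.4 holds 2 such elements and the other genes 1 each. Of 20930 genes tested with a window, 0.492% held an element of 3 units, searched on both strands, against 10 of the 95 genes called higher (10.5%) and 1 of the 85 called lower (1.18%). The shorter form with 2 units, which lies within every element of 3, occurred in 33 of the higher genes (34.7%), 19 of the lower genes (22.4%) and 16.2% of all. Among the cytosolic small heat shock genes, 8 of 13 held the short form. These are matches of letters and no measurement of binding.

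AT1G07400, an HSP20-like chaperone, had 995 and 272 CPM at 27 °C, against 2.58 and 1.13 CPM at 17 °C. Both 27 °C libraries lay far above both 17 °C libraries, and the log2 fold change was 8.49 ± 0.83 (adjusted p = 0.0117, edgeR). HSP17.6A had 286 and 65.6 CPM at 27 °C, against 0.337 and 0.133 CPM at 17 °C, and HSP17.6II had 214 and 62.7 CPM at 27 °C, against 0.449 and 0 CPM at 17 °C. Their log2 fold changes were 9.65 and 9.59, on very few control counts, and those of the HSP20-like AT1G59860 and AT2G29500 were 6.31 and 5.99. AT1G53540 had 1088 counts at 27 °C and 3 at 17 °C over both libraries, a ratio of 408 with a 95% counting interval from 139.2 to 1981. HSP18.2 passed with a smaller fold change, at 10.8 and 12.3 CPM at 27 °C, against 3.48 and 3.39 CPM at 17 °C, a log2 fold change of 1.75. In HSP17.4, AT1G07400, HSP17.6A and HSP17.6II library 1 at 27 °C was well above library 2, and in HSP18.2 it was not. Many genes of the family are alike in sequence, and how reads shared between copies were counted is not known.

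**Figure D1:**
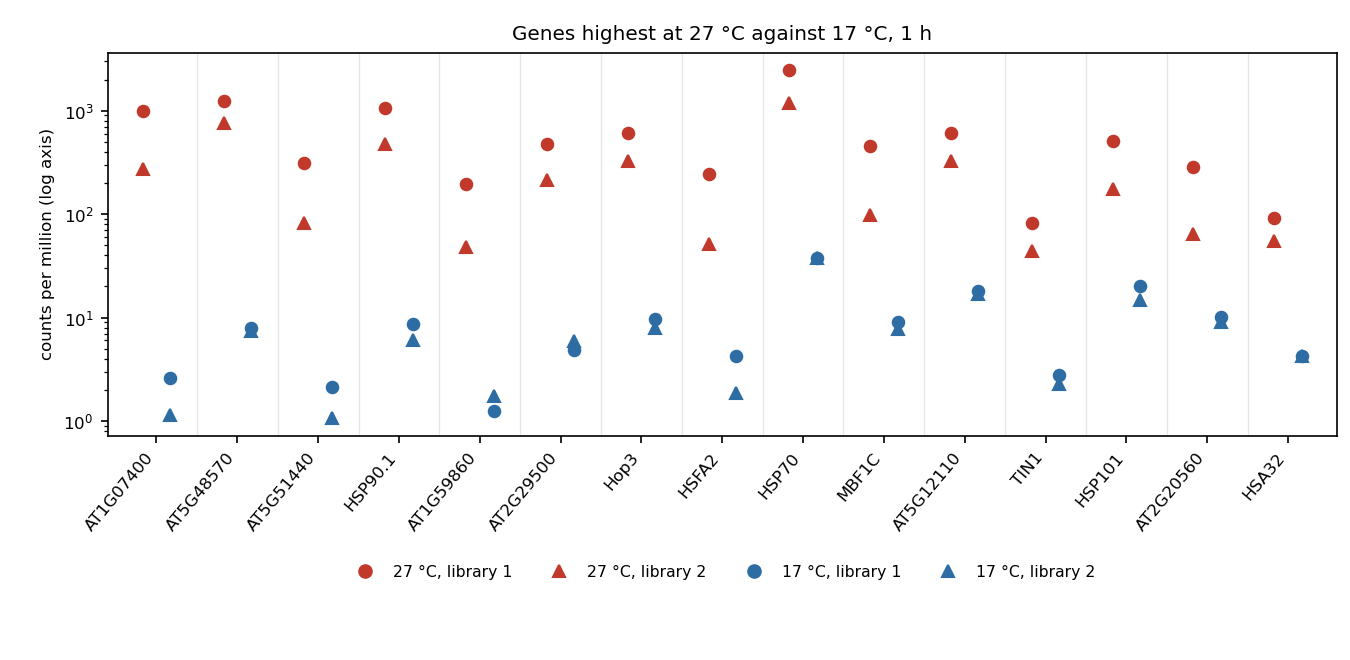
CPM on a log axis for the 15 genes with the highest log2 fold changes among well-expressed genes called at 1 h, with 1 point per library and 27 °C drawn to the left of 17 °C for each gene. All 15 genes show both 27 °C libraries above both 17 °C libraries, for example 995 and 272 CPM at 27 °C against 2.58 and 1.13 CPM at 17 °C for AT1G07400. The genes were chosen by a test on these libraries, so this separation adds no support.

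For the small heat shock proteins of organelles, 1 of 5 tested genes passed without the block and 4 with it. AT5G51440 passed in both, with 314 and 82.8 CPM at 27 °C, against 2.13 and 1.06 CPM at 17 °C, a log2 fold change of 7.02 ± 0.89 (adjusted p = 0.0262, edgeR). HSP23.6-MITO, a mitochondrial member, had 629 and 118 counts at 27 °C, against 0 and 3 at 17 °C. Over both libraries that was a ratio of 280.1 with a counting interval from 95.47 to 1361, which leaves out the spread between libraries. Its adjusted p in edgeR was 0.11 without the block and 0.0038 with it. ATHSP22.0, the ER member, had 25 and 15 counts at 27 °C, against 0 and 1 at 17 °C (ratio 45, interval 7.625 to 1821). HSP21, the chloroplast member, had 20 and 5 at 27 °C, against 1 in each 17 °C library (ratio 14.06, interval 3.506 to 122.5). These last genes, too, passed edgeR with the replicate block and not without it.

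Among the heat shock factors themselves, 2 of 17 tested genes were higher and none lower without the block, and the list's median was 0.31. HSFA2, a factor that prolongs the heat response, had 244 and 51.6 CPM at 27 °C, against 4.26 and 1.86 CPM at 17 °C. The groups did not overlap, and the log2 fold change was 5.65 ± 0.85 (adjusted p = 0.0323, edgeR). AT-HSFB2B, a factor of the class that lacks the usual activation domain, had 27.2 and 23.5 CPM at 27 °C, against 8.42 and 11.3 CPM at 17 °C, a log2 fold change of 1.35, and it overlaps another gene. HSFA7A, HSFB2A and HSFB4 passed only with the block, HSFA7A with 52.1 and 18.3 CPM at 27 °C, against 8.75 and 6.97 CPM at 17 °C. HSF1 and HSFA1D, factors present before heat, were at -0.27 and 0.54 and passed neither test. MBF1C, a transcriptional coactivator of the heat response, had 461 and 98.7 CPM at 27 °C, against 8.98 and 7.70 CPM at 17 °C, and was the sole member past the test among 12 coactivators, DREB2 factors and scavenger enzymes (log2 fold change 5.07 ± 0.77, adjusted p = 0.0323, edgeR). With the block, GolS1, which makes the sugar galactinol, the ascorbate peroxidase APX2, AR192 and NF-YC10 were also higher.

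Of 13 HSP70 genes, 2 were higher and none lower without the block (median 0.84). HSP70 (AT3G12580), a cytosolic refolding chaperone, had 2468 and 1183 CPM at 27 °C, against 37.5 and 38 CPM at 17 °C, a log2 fold change of 5.59 ± 0.55 (adjusted p = 0.0117, edgeR). HSP70T-2, a truncated relative, had a log2 fold change of 3.66, and was the other gene past the test. With the block 7 of the 13 passed, among them the chloroplast forms cpHsc70-1 and cpHsc70-2 at 0.78 and 0.84 and the mitochondrial form MTHSC70-2 at 1.54.

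Of 14 genes for HSP90 and its partners, 7 were higher and none lower (median 1.32). HSP90.1, the heat-inducible cytosolic HSP90, had 1060 and 475 CPM at 27 °C, against 8.75 and 6.04 CPM at 17 °C, a log2 fold change of 6.71 ± 0.67 (adjusted p = 0.0117, edgeR). CR88, the chloroplast HSP90, was at 964 and 841 CPM at 27 °C, against 368 and 344 CPM at 17 °C, a smaller difference of 1.34 on the log2 scale. Hop3, which hands clients between HSP70 and HSP90, had 612 and 323 CPM at 27 °C, against 9.76 and 7.84 CPM at 17 °C. AT5G48570, an FKBP-type isomerase, had 1239 and 762 CPM at 27 °C, against 7.86 and 7.44 CPM at 17 °C, a log2 fold change of 7.03 ± 0.71. In each of these genes, as in all genes called higher, both 27 °C libraries lay above both 17 °C libraries. Hop2, a relative of Hop3 that overlaps another gene, the isomerase ROF1 and the Aha1 domain protein AT3G12050 also passed, with log2 fold changes of 1.31, 1.91 and 2.31.

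Some genes of disaggregation and of organelle folding were higher as well. HSP101, which pulls proteins out of aggregates, had 509 and 177 CPM at 27 °C, against 19.97 and 14.8 CPM at 17 °C (log2 fold change 4.30 ± 0.55, adjusted p = 0.0235, edgeR), and overlaps another gene. HSA32, which prolongs acquired heat tolerance, had 91.7 and 54.7 CPM at 27 °C, against 4.26 and 4.25 CPM at 17 °C. These were 2 of the 4 disaggregation genes tested, and the mitochondrial CLPB4 passed only with the block. Of 8 chaperonin genes, the chloroplast Cpn60beta2 was at 976 and 729 CPM at 27 °C, against 250.3 and 178 CPM at 17 °C, and the mitochondrial HSP60 at 542 and 350.4 CPM at 27 °C, against 174 and 173 CPM at 17 °C. AT2G20560, a DNAJ protein that overlaps another gene, was the 1 member higher among 12 DnaJ and BAG co-chaperones, at 285 and 63.8 CPM at 27 °C, against 10.1 and 8.96 CPM at 17 °C.

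Genes outside the chaperone lists were among the highest too. AT5G12110, annotated as elongation factor 1-beta 1 of the translation machinery, had 616 and 328 CPM at 27 °C, against 17.9 and 16.9 CPM at 17 °C, a log2 fold change of 4.76 ± 0.45 (adjusted p = 0.0117, edgeR). TIN1, named for induction by the ER stress drug tunicamycin, had 81.6 and 43.9 CPM at 27 °C, against 2.81 and 2.26 CPM at 17 °C (log2 fold change 4.64). SR proteins direct splicing, and 3 of 18 were higher and none lower (median 0.21, but -0.04 without library 2 at 17 °C, and below 0 without library 1 at 27 °C). SR45a was at 332 and 157 CPM at 27 °C, against 65.3 and 44.0 CPM at 17 °C, SR30 at 312 and 211 CPM at 27 °C, against 65.8 and 51.3 CPM at 17 °C, and SCL33 at 102 and 64.9 CPM at 27 °C, against 38.7 and 29.6 CPM at 17 °C. The other SR genes lay between -0.47 and 0.69, and SR34b, at the upper end, passed only with the block.

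**Figure D2:**
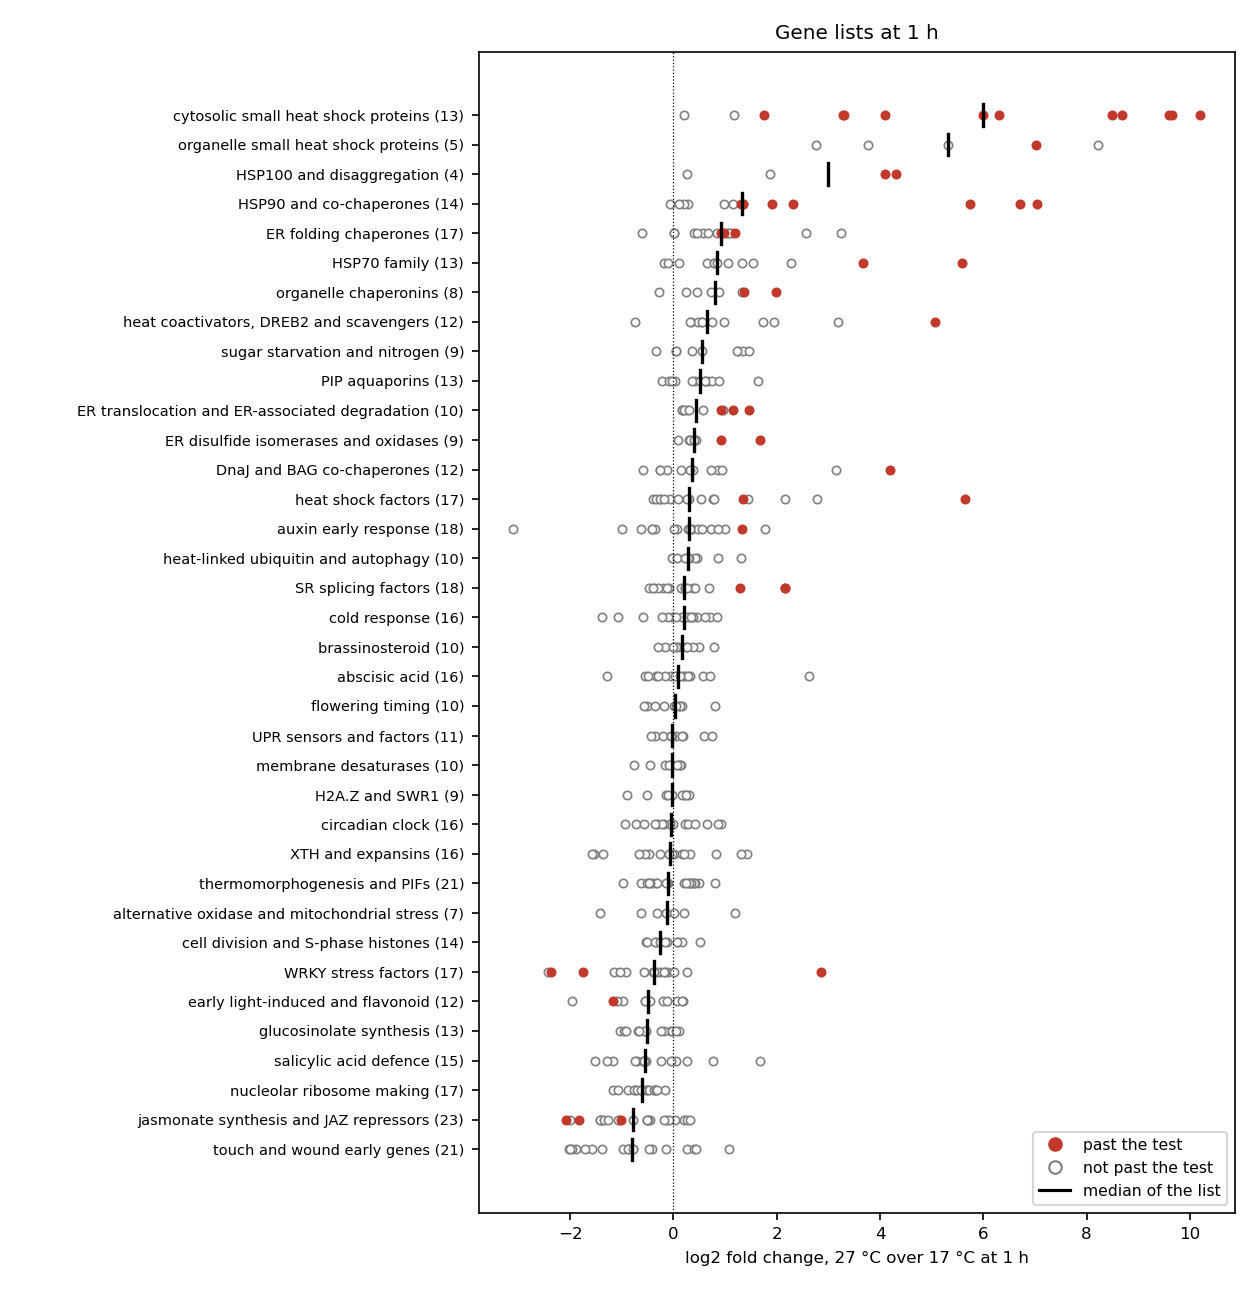
Log2 fold change of 27 °C over 17 °C at 1 h for each tested member of the gene lists, 1 point per gene, with genes past the test without the block in red and the list median as a black bar. Small heat shock proteins reach furthest above 0 (median 5.99 for the cytosolic ones). The ER lists of folding, of isomerases and oxidases, and of translocation and degradation have smaller positive medians (0.92, 0.39 and 0.44). The ER stress sensors and factors lie on both sides of 0 (median -0.02), and the jasmonate list lies mostly below 0 (median -0.79).

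The ER folding genes that passed the test were higher at 27 °C by about 1 on the log2 scale. Of 17 ER folding chaperone genes, 3 were higher without the block and 9 with it, none was lower in either fit, and the median log2 fold change was 0.92. SDF2, needed for protein quality control in the ER, had 121 and 120 CPM at 27 °C, against 53.9 and 51.7 CPM at 17 °C, a log2 fold change of 1.19 ± 0.17 (adjusted p = 0.0262, edgeR). CRT1a, a calreticulin that binds sugar-tagged folding proteins, had 461 and 445 CPM at 27 °C, against 233 and 226 CPM at 17 °C (0.98 ± 0.17). CNX1, the membrane-bound calnexin with the same task, had 498 and 484 CPM at 27 °C, against 259 CPM in each 17 °C library (0.92 ± 0.17). In these genes, as in all genes called higher, both 27 °C libraries lay above both 17 °C libraries. Libraries 1 and 2 of a temperature lay close together.

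The ER stress element, the letters CCAAT and CACG with 10 bases between them on either strand, stood in front of 9 of the 17 folding genes (52.9%), against 1.16% of all genes tested. It occurred in 8 of the 95 genes called higher (8.42%) and 0 of the 85 called lower. The windows of CRT1a (chr1:21092661-21092910, minus strand) and CNX1 (chr5:24829792-24830041, minus strand) are shown as induced genes with the element, and that of BIP3 (chr1:2931842-2932091, minus strand) as a gene with 2 copies that was not called. Capitals mark the element.
CRT1a: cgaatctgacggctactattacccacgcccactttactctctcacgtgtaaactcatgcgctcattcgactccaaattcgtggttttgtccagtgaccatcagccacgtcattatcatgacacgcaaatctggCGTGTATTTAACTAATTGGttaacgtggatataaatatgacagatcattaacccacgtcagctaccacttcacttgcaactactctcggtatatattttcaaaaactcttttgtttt
CNX1: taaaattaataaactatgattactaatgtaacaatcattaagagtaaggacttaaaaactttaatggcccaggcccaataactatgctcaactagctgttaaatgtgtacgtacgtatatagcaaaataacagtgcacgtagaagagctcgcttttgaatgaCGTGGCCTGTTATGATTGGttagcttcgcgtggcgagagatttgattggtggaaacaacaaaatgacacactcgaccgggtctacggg
BIP3: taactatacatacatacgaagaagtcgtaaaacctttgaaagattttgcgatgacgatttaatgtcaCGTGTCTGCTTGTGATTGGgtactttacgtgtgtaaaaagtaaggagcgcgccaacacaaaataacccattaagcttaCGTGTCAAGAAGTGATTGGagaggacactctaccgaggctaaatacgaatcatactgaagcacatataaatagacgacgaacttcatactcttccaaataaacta
BIP3, the ER HSP70 known for its strong induction by ER stress, had 1.08 and 1.66 CPM at 27 °C, against 2.58 and 1.73 CPM at 17 °C. Both values at 27 °C lay below both at 17 °C, on low counts, with a log2 fold change of -0.62 and an adjusted p of 0.78 in edgeR. BIP1 was at 585 and 606 CPM at 27 °C, against 258 and 287 CPM at 17 °C, and BIP2 at 469 and 543 CPM at 27 °C, against 247 and 279.6 CPM at 17 °C. Both passed only with the block, with log2 fold changes of 1.13 and 0.94, and their near-identical sequences may share reads. SHD, the ER HSP90, ATERDJ3B and P58IPK, both HSP70 partners, passed in the same way at 1.04, 1.08 and 0.85. Fes1A, listed with them although it acts on cytosolic HSP70, was at 3.25 and also passed only with the block.

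Of 9 disulfide isomerases and oxidases of the ER, 2 were higher. PDIL2-2 had 61.7 and 64.8 CPM at 27 °C, against 19.4 and 20.2 CPM at 17 °C, a log2 fold change of 1.67 ± 0.24 (adjusted p = 0.0262, edgeR). PDIL2-3 had 117 and 124 CPM at 27 °C, against 59.6 and 67.6 CPM at 17 °C. Of 10 genes for ER translocation and degradation, 3 were higher: the derlins DER1 and DER2.1 at 1.15 and 1.47, and EBS5, a partner of the Hrd1 ubiquitin ligase, at 0.93. DER2.1 overlaps another gene. Of 11 ER stress sensors and factors, edgeR called 0 without the block (2 at an unadjusted p under 0.05, 0 in DESeq2) and 1, the cell death suppressor BI1, with it. BZIP28 was at 0.59 and BZIP60 at -0.35, neither past either test.

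**Figure D3:**
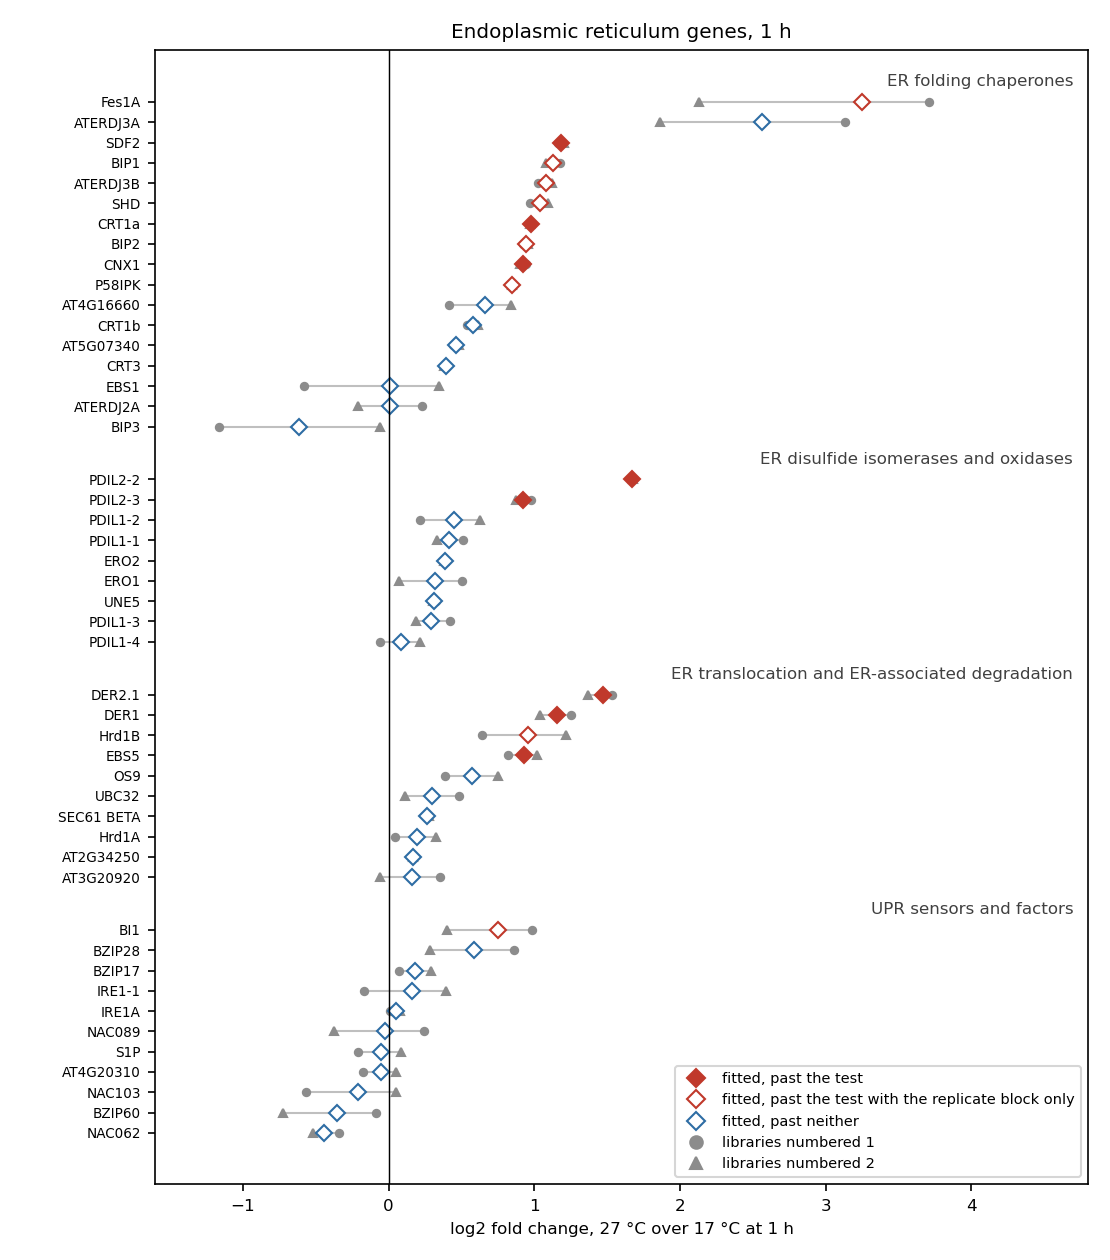
Log2 fold change at 1 h (27 °C over 17 °C) for the tested genes of the ER lists. They are 17 folding chaperones, 9 disulfide isomerases and oxidases, 10 translocation and degradation genes, and 11 ER stress sensors and factors. Diamonds are the fitted value, filled red where past the test, open red where past only with the replicate block and blue where past neither. The grey circle and triangle are the pairs of libraries numbered 1 and 2. SDF2, CRT1a and CNX1 lie at 1.19, 0.98 and 0.92, ATERDJ3A and Fes1A at 2.56 and 3.25, and BIP3 at -0.62.

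Jasmonate genes were among those lower at 27 °C than at 17 °C. Of 23 genes of jasmonate synthesis, breakdown and JAZ repression, 3 were lower and none higher without the block, and 11 were lower with it. The list's median was -0.79, and it lay between -1.26 without library 1 at 27 °C and -0.32 without library 1 at 17 °C. LOX4, a lipoxygenase at the start of jasmonate synthesis, had 15.2 and 14.1 CPM at 27 °C, against 48.9 and 54.8 CPM at 17 °C, a log2 fold change of -1.82 ± 0.34 (adjusted p = 0.0461, edgeR). CYP94C1, which oxidises the active hormone, had 5.75 and 5.79 CPM at 27 °C, against 31.8 and 17.2 CPM at 17 °C (-2.08 ± 0.31). TIFY10B, a JAZ repressor, had 52.4 and 37.7 CPM at 27 °C, against 104 and 78.5 CPM at 17 °C (-1.02 ± 0.20). The synthesis genes LOX3, AOC3 and OPR3 and the repressors JAZ1, JAZ5, JAZ6, JAZ8 and JAZ10 passed only with the block, at values from -0.79 to -2.

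WRKY factors regulate defence genes, and 2 of 17 were lower at 27 °C while 1 was higher. WRKY18, a factor that tempers basal defence, had 18.0 and 15.6 CPM at 27 °C, against 96 and 78 CPM at 17 °C, the lowest log2 fold change among well-expressed genes called at 1 h (-2.37 ± 0.37, adjusted p = 0.0314, edgeR). WRKY48 had 7.26 and 8.69 CPM at 27 °C, against 27.0 and 27.1 CPM at 17 °C (-1.76). WRKY75 went the other way, with 13.9 and 8.77 CPM at 27 °C, against 2.13 and 1.06 CPM at 17 °C (2.86 ± 0.47). The list's median was -0.37, and it lay between -0.66 without library 1 at 27 °C and -0.16 without library 1 at 17 °C. AT1G63860, an immune receptor of the TIR-NBS-LRR class, had 5.64 and 6.78 CPM at 27 °C, against 21.9 and 21.2 CPM at 17 °C (-1.79), and CRK41, a cysteine-rich receptor kinase, was at -1.83. Of 15 salicylic acid genes edgeR called 0 without the block (7 at an unadjusted p under 0.05, 0 in DESeq2), and with it PR5, EDS5 and SAG101 were lower and NPR4 higher (median -0.55). Of 21 touch and wound genes edgeR called 0 without the block (5 unadjusted, 2 in DESeq2), and 4 were lower with it.

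**Figure D4:**
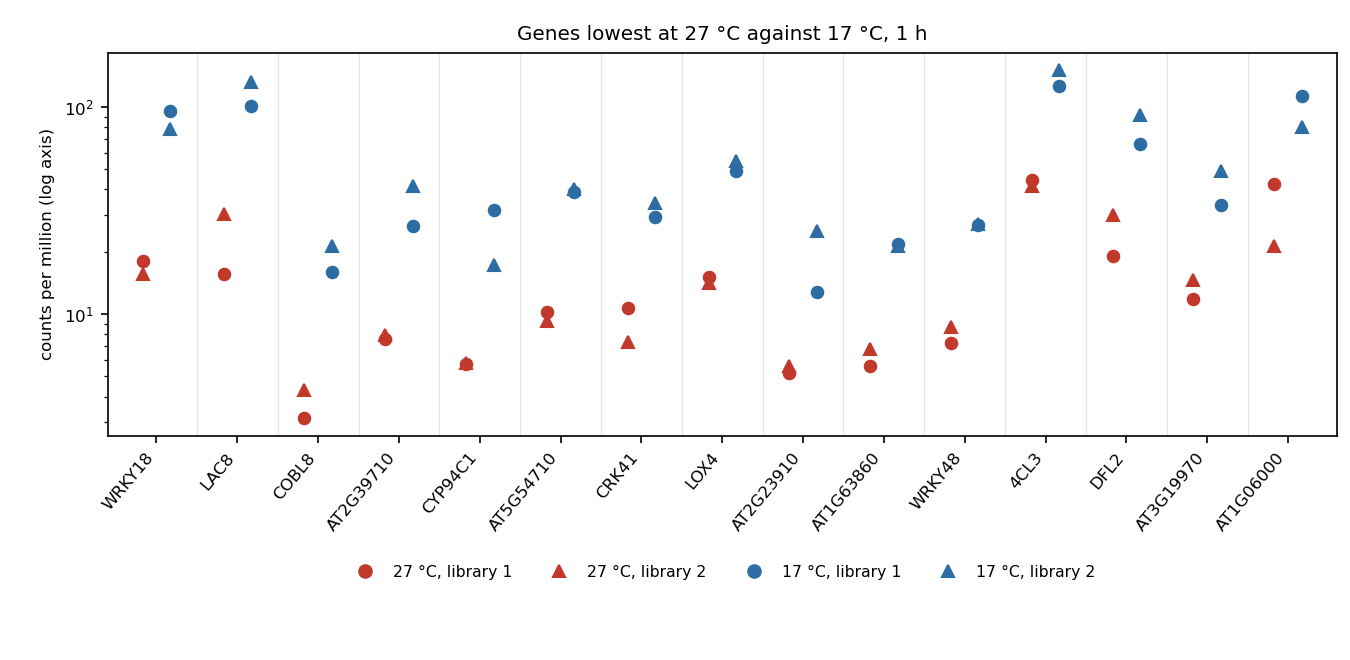
CPM on a log axis for the 15 genes with the lowest log2 fold changes among well-expressed genes called at 1 h, with 1 point per library and 27 °C drawn to the left of 17 °C for each gene. In all 15 genes both 27 °C libraries lie below both 17 °C libraries, for example 18.0 and 15.6 CPM at 27 °C against 96 and 78 CPM at 17 °C for WRKY18. The genes were chosen by a test on these libraries, so this separation adds no support.

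Genes for phenolic compounds and the cell wall were also among the lowest. LAC8, a laccase that overlaps another gene, had 15.6 and 30.5 CPM at 27 °C, against 102 and 133 CPM at 17 °C (-2.34 ± 0.35, adjusted p = 0.0262, edgeR). 4CL3, a coumarate ligase of the flavonoid branch, had 44.2 and 41.7 CPM at 27 °C, against 126 and 151 CPM at 17 °C (-1.69 ± 0.25). FLS1, which makes flavonols, had 116 and 82.4 CPM at 27 °C, against 229.6 and 217 CPM at 17 °C (-1.17), and was the 1 of 12 early light-induced and flavonoid genes past the test. COBL8, a COBRA-like cell wall protein that overlaps another gene, was at -2.32, DFL2, a GH3 amino acid conjugase, at -1.68, and AT1G06000, a glycosyltransferase that overlaps another gene, at -1.6. The aspartyl protease AT2G39710, the ankyrin protein AT5G54710, the Rossmann-fold protein AT2G23910 and the hydrolase AT3G19970 were at -2.14, -2.03, -1.82 and -1.65. The W box TTGACC or TTGACT, to which WRKY factors bind, stood on either strand in 8 of the 15 lowest genes, 31 of the 85 genes called lower (36.5%), 14 of the 95 called higher (14.7%) and 29.2% of all. The G box CACGTG was in front of 17 of the 95 genes called higher (17.9%), 9 of the 85 called lower (10.6%) and 8.78% of all, and CCGAC, the core bound by cold response factors, in front of 12 of the higher genes, 15 of the lower genes and 14.3% of all.

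Of 17 nucleolar genes of ribosome making, edgeR called 0 without the block (14 lower at an unadjusted p under 0.05, 7 lower in DESeq2) and 7 lower with it, and all 17 were below 0 in both same-numbered pairs (median -0.61). Of all 21119 genes tested, 6975 were below 0 in both pairs. In either direction, 3405 had an unadjusted p under 0.05 in edgeR, and DESeq2 called 865. FIB2, a fibrillarin that guides methylation of ribosomal RNA, had 61.2 and 61.5 CPM at 27 °C, against 123 and 103 CPM at 17 °C. The groups did not overlap, yet the adjusted p was 0.0799 without the block and 0.0101 with it (log2 fold change -0.88 ± 0.20, edgeR), and FIB2 overlaps another gene. PUM23, PUM24, AT5G27120, AT3G15460, AT3G22660 and AT3G55510 were between -0.63 and -1.08. The window before FIB2 (chr4:13073883-13074132, plus strand) is shown for its telo box, a motif of genes for ribosome making, given in capitals (AAACCCTA).
FIB2: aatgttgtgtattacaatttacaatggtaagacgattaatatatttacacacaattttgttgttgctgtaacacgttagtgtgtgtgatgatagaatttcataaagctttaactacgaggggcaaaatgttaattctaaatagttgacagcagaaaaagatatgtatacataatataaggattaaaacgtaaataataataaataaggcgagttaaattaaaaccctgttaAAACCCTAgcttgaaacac
The telo box, searched on both strands, stood in front of 10 of the 17 nucleolar genes (58.8%) and 5.79% of all genes tested.

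The lists of growth regulators gave 0 or 1 call each at 1 h without the block, where 0.852% of all genes tested were called. At that share a list of this size would often hold no call, so the low counts set these lists apart from no others. Over all genes, 3405 of 21119 had an unadjusted p under 0.05. PIF4 had 103 and 104 CPM at 27 °C, against 79.8 and 76.0 CPM at 17 °C. The groups did not overlap, but the log2 fold change of 0.41 ± 0.32 was not past the test (adjusted p = 0.561, edgeR), and of 21 thermomorphogenesis genes edgeR called 0 without the block (4 at an unadjusted p under 0.05, 0 in DESeq2) and 1, the leaf growth factor TCP4 at -0.98, lower with it. WES1, a GH3 enzyme that conjugates auxin, had 35.7 and 44.3 CPM at 27 °C, against 14 and 17.9 CPM at 17 °C (1.32 ± 0.22), the 1 of 18 auxin genes past the test. CCA1, a morning clock gene, had 325 and 346 CPM at 27 °C, against 325 and 358 CPM at 17 °C (-0.03 ± 0.15, adjusted p = 0.956, edgeR). Of 16 clock genes edgeR called 0 without the block (5 unadjusted, 1 in DESeq2), and with it PCL1 was higher and GI and RVE8 lower. The lists for brassinosteroids, cold, desaturases, abscisic acid, ubiquitin with autophagy, alternative oxidase, sugar with nitrogen, H2A.Z, cell division, flowering, XTH enzymes with expansins and PIP aquaporins, and the shoot and root markers, had 0 calls each in edgeR without the block (0 to 6 each at an unadjusted p under 0.05, 0 to 2 each in DESeq2), and at most 3 each with it. Glucosinolate synthesis had 0 of 13 called by edgeR without the block (4 unadjusted, 2 in DESeq2) and 5 lower with it, among them SUR1 at -0.92 and CYP83B1 at -0.95.

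The 1 h response was set against those of the same move at 15 min and 4 h, with the test run on the difference of the log2 fold changes. Log2 fold changes given for a time come from the fit without the block. Differences given for single genes come from the fit with it, so they can depart from the subtraction of those values. Without the block, edgeR called 0 genes against 15 min (1285 at an unadjusted p under 0.05, 140 in DESeq2) and 0 against 4 h (1122 unadjusted, 32 in DESeq2). With the block, 38 genes were higher at 1 h than at 15 min (0.18%) and 184 lower (0.871%), and 16 differed from 4 h in either direction (0.0758%). Of the 23 jasmonate genes, 9 had a lower effect at 1 h than at 15 min with the block, all of them among the 11 lower at 1 h. The 1 h effect enters both tests, so the 2 counts are not independent. LOX4 had a log2 fold change of 0.99 at 15 min, -1.82 at 1 h and -1.17 at 4 h, and its difference from 15 min was -2.84 with an adjusted p of 0.0013 in edgeR with the block. At the same times CYP94C1 was at 0.87, -2.08 and -0.30, and WRKY18 at 0.71, -2.37 and -0.63, with differences from 15 min of -2.89 and -3.08. JAZ10, OPR3, JAZ5, TIFY10B, LOX3, JAZ6 and AOC3 differed by -2.16 to -1.32. The jasmonate list's median was 0.38 at 15 min, -0.79 at 1 h and -0.43 at 4 h.

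Of 17 heat shock factors, 2 had a lower effect at 1 h than at 15 min with the block, where 0.871% of all genes tested did. The median of the cytosolic small heat shock proteins was 4.53 at 15 min, 5.99 at 1 h and 2.86 at 4 h. None of the 13 differed from 15 min with the block. At the share over all genes a list of this size would often hold no such call, so equal effects are not shown. HSFA2 had log2 fold changes of 7.29, 5.65 and 2.24 at the 3 times, and HSP101 at 5.85, 4.30 and 1.75, with no call of either difference. HSFA7A did differ, at 5.83 at 15 min, 2.17 at 1 h and 0.44 at 4 h, a difference from 15 min of -3.75 ± 0.46 (adjusted p = 0.0187, edgeR with the block). AT-HSFB2B differed by -1.42 (adjusted p = 0.0433, edgeR with the block). AT1G07400 was at 7.55, 8.49 and 3.14, and differed from 4 h by 5.06 ± 0.61 (adjusted p = 0.0416, edgeR with the block). The ER folding list had medians of 0.28, 0.92 and 0.35 at 15 min, 1 h and 4 h, and the disulfide isomerases and oxidases of 0.13, 0.39 and 0.15, with PDIL2-2 among them at 0.24, 1.67 and 0.74. No member of either list differed from 15 min past the test, which at the share over all genes would be common for lists of this size.

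**Figure D5:**
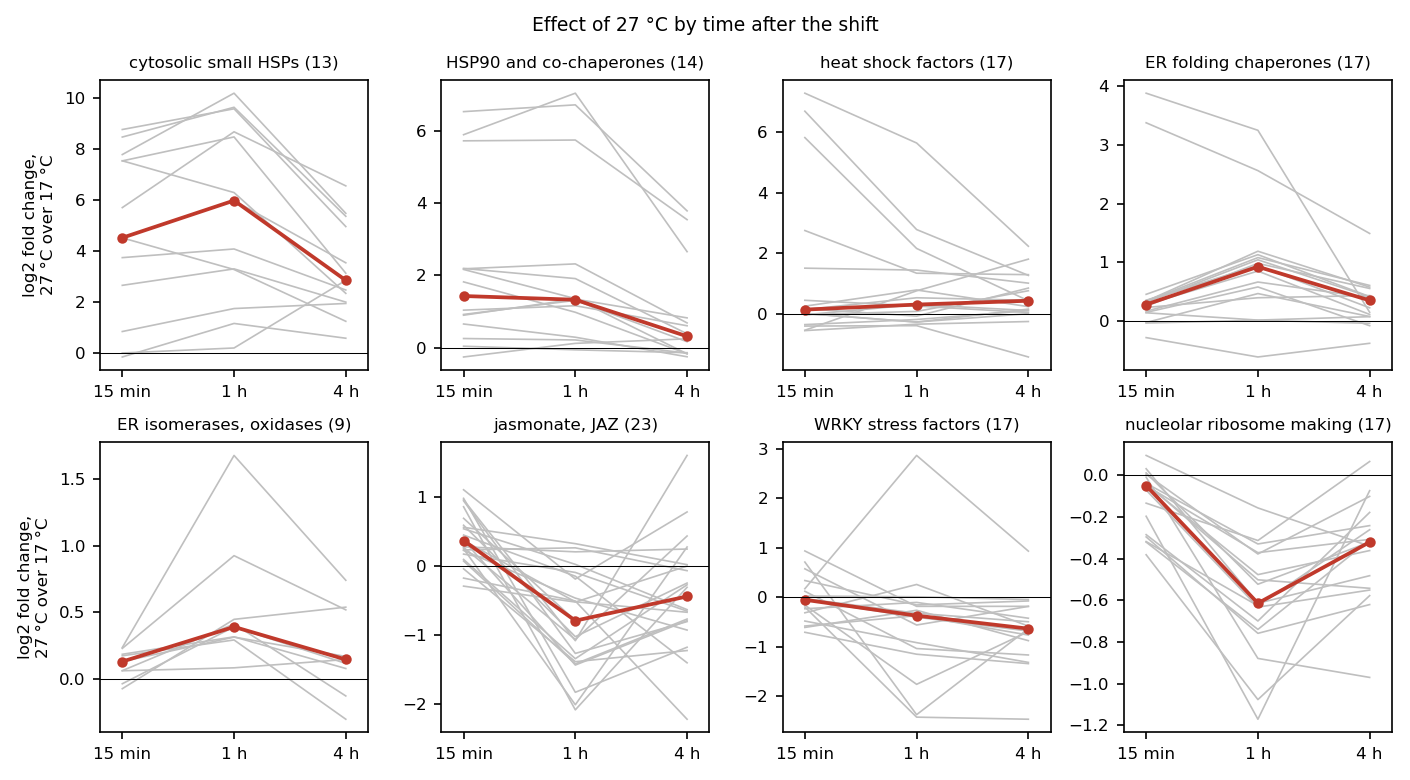
Log2 fold change of 27 °C over 17 °C at 15 min, 1 h and 4 h for the tested members of 8 gene lists, 1 line per gene, with the list median in red. The cytosolic small heat shock proteins have medians of 4.53, 5.99 and 2.86, the ER folding chaperones 0.28, 0.92 and 0.35, and the jasmonate genes 0.38, -0.79 and -0.43.

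Seedlings moved to 37 °C or from 22 °C to 27 °C were also sampled at 1 h, with 1 library per temperature, so those ratios carry no test and are set beside the values above as a description. HSP101 had a log2 ratio of CPM of 8.07 at 37 °C over 17 °C and 3.16 at 27 °C over 22 °C, and HSFA2 had 9.06 and 3.60. HSP18.2, at 1.75 in the move from 17 °C to 27 °C, had a ratio of 8.12 at 37 °C. CRT1a was at -0.67 in the 37 °C libraries and 0.49 in the move from 22 °C, SDF2 at 0.76 and 0.44, and PDIL2-2 at 0.74 and 0.97. The 15 lowest genes shown above had a median ratio of -0.87 at 37 °C, with 14 of them below 0, and of -0.60 in the move from 22 °C, with 11 below 0. At 37 °C they ran from -2.53 for CYP94C1 to 0.14 for WRKY18, with CRK41 at -2.32, WRKY48 at -1.30 and LOX4 at -0.04. The 15 highest genes were all above 0 in both moves, with medians of 8.09 at 37 °C and 3.93 in the move from 22 °C. Over all genes tested the medians were -0.02 at 37 °C and -0.01 in the move from 22 °C. Values below 0 were thus common in both moves, and the counts below 0 are to be read against that.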

How the data were processed

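RNA from seedlings was sequenced as paired reads of 100 bases. The build was TAIR10 and the tools were TopHat, Trimmomatic, Picard and FastQC, per the submitters' processing notes. Neither tool versions nor the program that counted reads nor its use of strand is given in the sources used here. Stranded and unstranded kits and 2 centres were used, per the labels, and which library had which is not stated. Per the file headers, the deposited files hold raw counts per gene made by the authors, together with the authors' FPKM (scaled to gene length and library size) and TPM. Only the counts were used, for 33557 genes, of which 32810 matched a RefSeq locus, the source of names and products.

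Genes were filtered with filterByExpr and scaled with TMM, leaving 21119. They were tested with the two-sided quasi-likelihood F test of edgeR 4.0.16 (robust, R 4.3.3) in 1 group-means fit over 12 libraries, with 6 residual degrees of freedom, or 3 with the replicate block within each time. P-values were adjusted over all genes by Benjamini and Hochberg with a threshold of 0.05. SE is the fold change over the square root of F. The totals of the fit ran from 6.4 to 30.74 M counts, and counting intervals cover counting error only. Deviations of same-numbered libraries from their group means correlated at 0.45, 0.57 and 0.48 at 15 min, 1 h and 4 h, each over 0.1, which was taken as pairing within a time. Libraries of equal number but different times correlated at -0.03 to 0.41, so the correlation was not confined to a time, and a block over the times was tried as well. Libraries of a group differed by more than counting error. DESeq2 1.42.0, RLE scaling, other filters, subsets and left-out libraries were alternatives. The test was tried on simulated counts.

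Genes named were the 15 highest and 15 lowest called genes whose mean log2 CPM was at least 3 and whose sign was the same in both pairs, up to 4 members past the test in each of 39 lists (with the block where few passed), HSFA2, HSP70, HSP101, PIF4 and CCA1, and up to 6 per direction in each difference between times. Other genes given were chosen after their values were seen. The members and lists were chosen with earlier results of these data known. Promoter windows took the gene starts of the files on the RefSeq TAIR10.1 sequence, since 10573 of 32810 nuclear genes have both ends at the same positions in both annotations, along all 5 chromosomes. Log2 ratios of lone libraries used a prior count of 2.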

Additional observations from a re-analysis of the deposited data

Results flagged for a closer look

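The genes here had an effect at 1 h that differed from the effect of the same move at another time, by edgeR's test of that difference with the replicate block. Without the block that test called 0 genes against either time. The differences come from the fit with the block and the log2 fold changes at each time from the fit without it.

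Against 15 min, the highest differences were 2.85 for GRXS13 (adjusted p = 0.0161, edgeR), a glutaredoxin, whose log2 fold change was 3.1 at 1 h and 0.29 at 15 min, 2.65 for AT2G37750, 2 for bHLH093, 1.99 for BGAL4, 1.94 for ZIP3 and 1.9 for P1R1. The lowest were -3.75 for HSFA7A (2.17 at 1 h, 5.83 at 15 min), -3.69 for LAC8 (-2.34 at 1 h, 1.25 at 15 min), -3.08 for WRKY18, -3.07 for AT1G63860, -3.05 for AT5G54710 and -2.97 for AT4G19520. Adjusted p-values of these 12 genes in edgeR with the block lay between 0.0013 and 0.0347.

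Against 4 h, the highest differences were 5.06 for AT1G07400, 2.96 for GRXS13, 2.81 for GolS3, 2.25 for CYP87A2, 2.06 for AT5G64100 and 1.98 for AT3G15356. GolS3, a galactinol synthase, was at -0.10 at 1 h and -2.91 at 4 h. The lowest were -2.16 for EXLA1 (-1.19 at 1 h, 1.08 at 4 h), -1.82 for AT1G11960 and -1.52 for AOC3 (-1.06 at 1 h, 0.44 at 4 h). Adjusted p-values in edgeR with the block lay between 0.0387 and 0.0416.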

How the results depend on the processing

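The count of 180 genes called at 1 h moved by less than 1.5 times under RLE scaling (182), no low-count filter (250), a stricter filter (220) and without organelle genes (208). DESeq2 called 865 at 1 h, 140 against 15 min and 32 against 4 h. The replicate block called 446, 13 and 0 as 1 term over the times, and 1652, 222 and 16 within each time. The 4 libraries at 1 h alone gave 20 calls, and 1790 with the replicate block. Leaving out 1 library at a time gave 0 to 1318 calls at 1 h, 0 against 15 min, and 0 to 3 against 4 h. In 2 runs chosen after seeing the data, leaving out both 1 h libraries numbered 1, or both numbered 2, gave 0 calls (1983 and 4087 at an unadjusted p under 0.05). Where a left-out library leaves 1 at a temperature, its spread is assumed to be that of the other groups. The cause of these shifts was not tested. Of 99 named genes, none changed sign with a call in any alternative, and 98 kept their side of the threshold under RLE scaling, 81 in DESeq2 and 56 with the block within each time, where 43 gained a call. Of 570 list medians under the alternatives, 85 moved by more than the spread between the pairs, 83 of them when 1 or 2 libraries were left out. The median of the cytosolic small heat shock proteins ran from 4.81 to 6.64, of ER folding from 0.83 to 0.97, of nucleolar genes from -0.68 to -0.43, of touch genes from -1.27 to -0.37, and of early light-induced and flavonoid genes from -1.05 to 0.08. It had the other sign in at least 1 alternative in 14 of 38 lists, the SR, thermomorphogenesis and clock genes among them. Depth limits genes with few counts at 17 °C, whose fold changes depend on the fit.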

Other observations

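Other genes past the test at 1 h, chosen here after their values were seen, act in protein turnover, membranes and hormone signalling. AtCDC48B, an AAA-type ATPase of the CDC48 kind, had 179.6 and 112 CPM at 27 °C, against 8.87 and 20.1 CPM at 17 °C (log2 fold change 3.31 ± 0.47, adjusted p = 0.0262, edgeR). EGY3, a protease-like chloroplast protein that overlaps another gene, was at 3.3, the ubiquitin-conjugating enzyme UBC2 at 1.27 and the proteasome subunit ATS9 at 1.1. ETR2, an ethylene receptor, had 19.1 and 30.0 CPM at 27 °C, against 5.61 and 5.91 CPM at 17 °C (2.09). The nucleotide sugar transporters UTR1 and UTR3, of which UTR3 overlaps another gene, were at 1.5 and 1.4. The vacuolar proton pump subunit VHA-E3 was at 2.24 and the aldolase FBA6 at 2.66.

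Among the genes called lower, PAL2, at the entry to phenylpropanoid synthesis, had 224 and 202 CPM at 27 °C, against 409 and 458 CPM at 17 °C (-1.03 ± 0.18, adjusted p = 0.0373, edgeR). MYB4, a repressor of the same pathway, was at -0.97. CPK28, a calcium-dependent kinase that restrains immune signalling, was at -1.5, the factor TGA3 at -1.08, and the immune receptor RPP4 at -1.12. DDF1, a DREB-type factor, had 0.759 and 0.0827 CPM at 27 °C, against 7.41 and 5.05 CPM at 17 °C (-3.97). NSN1, YAO and OLI2, which act in ribosome making and were in no list, were at -0.90, -0.83 and -0.95, and YAO overlaps another gene.

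Families grouped by their RefSeq product, also chosen after values were seen, are given as counts. Of 77 tested TIR-NBS-LRR immune receptors, 3 were lower without the block and 17 with it, none was higher, and the median was -0.46 on the log2 scale. Their median was -0.83 in the pair numbered 1 and -0.21 in the pair numbered 2, and members that lie side by side can share reads. Of 319 ribosomal protein genes, 233 were above 0 with a median of 0.12, and 3 were higher with the block. Of 42 proteasome subunit genes, 35 were above 0. For pentatricopeptide proteins 59 of 261 were above 0 (median -0.30), and for RNA helicases 12 of 61 (median -0.28). Of all genes tested, 10431 of 21119 were above 0. These shifts, too, were larger in the pair numbered 1 than in the pair numbered 2. The medians were 0.18 and 0.02 for ribosomal proteins and 0.39 and 0.05 for proteasome subunits. They were -0.55 and -0.09 for pentatricopeptide proteins and -0.48 and -0.12 for RNA helicases.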
